A study of Mus musculus with 16 samples.

Results

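Keratins are the intermediate filament proteins of epithelia and hair, and here 44 probes for 37 keratin genes were followed across B16-BL6 melanomas grown in mice. The members were all non-control probes whose deposited gene name is Krt followed by a number alone, out of 41174 non-control probes on the array. B16-BL6 is 1 mouse melanoma cell line, so the tumour cells of every animal share that origin, while skin, stroma, vessels and immune cells come from the C57BL/6J host. All 16 tumours came from male mice 8 weeks old, and each was hybridised to its own 1-colour array. The 4 groups of 4 tumours were control (no treatment named), ALA (5-aminolevulinic acid, a porphyrin precursor, given locally at 50 mg/kg), X-ray (irradiation alone) and ALA plus X-ray (the same ALA dose before fractionated irradiation). The radiation dose and the time of sampling are not given in the sources used here. The labels name each sample as a tumour preparation, without saying whether each came from a different animal, so p-values measure the spread between these preparations.

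Keratin filaments are built from obligate pairs of a type I and a type II keratin. Krt8 and Krt18 pair in simple epithelia, Krt5 and Krt14 in the basal layer of the epidermis, and Krt1 and Krt10 in the layers above it. Hair keratins form the hard cortex and cuticle of the hair shaft, and a further set fills the inner root sheath around it. Melanocytes and melanoma cells build their filaments mainly from vimentin. Which cells of these tumours made the keratin RNA was not tested. Members were divided into simple epithelial keratins (6 genes with a probe), epidermal and other stratified keratins (15 genes), inner root sheath and companion layer keratins (5 genes) and hair keratins (10 genes). Krt222 belongs to none of these classes. No probe carried the name Krt81. All mapped probes lay on chromosome 11 (22 probes) or chromosome 15 (21 probes), the chromosomes of the type I and type II gene clusters, and 1 Krt10 probe had no position in the files.

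The probes behind the results are shown because type II hair keratins are close paralogs and a 60-base probe may resemble more than 1 of them. The probe of Krt85, the tested hair keratin with the widest difference between groups, lies at chr15:101346996-101347055 (mm9, the build named in the file headers). The probe of Krt83 lies at chr15:101264040-101264099 and that of Krt86 at chr15:101307291-101307350. The accession behind the Krt83 probe carries the symbol Krt87 in the current RefSeq table, and Krt85 is named by the files alone. Capitals mark the run that the Krt83 and Krt86 probes have in common.
Krt85: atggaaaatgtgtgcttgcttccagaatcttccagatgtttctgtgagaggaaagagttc
Krt83: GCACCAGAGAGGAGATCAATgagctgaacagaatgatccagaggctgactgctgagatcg
Krt86: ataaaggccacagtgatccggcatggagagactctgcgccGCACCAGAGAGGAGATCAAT
Among all 946 pairs of keratin probes, Krt83 and Krt86 had the longest shared run, 20 bases, and the next longest was 13 bases. What each probe binds beyond its own gene was not tested. The epidermal probes that set 1 tumour apart are those of Krt10 (no position in the files), Krt14 (an interval of 606 bases, chr11:100064683-100065288) and Krt15 (chr11:99993340-99993399), also on mm9.
Krt10: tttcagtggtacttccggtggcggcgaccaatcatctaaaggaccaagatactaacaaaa
Krt14: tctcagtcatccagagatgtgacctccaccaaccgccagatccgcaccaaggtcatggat
Krt15: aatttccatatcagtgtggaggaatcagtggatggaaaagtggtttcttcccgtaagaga

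Levels are given as log2 processed signal relative to the 75th percentile of the same array, so 0 is a fairly bright spot and values near -6 are at background. They can be compared between arrays for 1 probe, not between probes. Between 44.3% and 53.6% of spots per array were well above background, the scanner software's own test. The 75th percentile itself was 213 to 408 signal units in control tumours, 217 to 331 with ALA, 224 to 478 with X-ray and 366 to 521 with ALA plus X-ray, so the combined group had brighter arrays. All 10 melanoma and melanocyte markers (such as Tyr, Dct and Mlana) were well above background on all 16 arrays, and their summed level (on the linear scale, in multiples of the 75th percentile) was 1030 to 1210 in control tumours and 939 to 1330 with ALA plus X-ray. All 8 macrophage markers were well above background on all 16 arrays and summed to 61.0 to 110 in control tumours and 147 to 275 with ALA plus X-ray, the 7 fibroblast markers to 27.4 to 106 and 59.6 to 421, and the 15 skeletal muscle markers to 2.17 to 352 and 2.5 to 1030. In bulk RNA, fewer cells of a type and less RNA per cell cannot be told apart. Each slide held 1 tumour of every group, and each group always took the same position on the slide, so position and group cannot be told apart.

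Most keratins were scarcely measured in these tumours. Of the 37 genes, 14 were well above background on no array, 23 on at least 1 array, and 8 on at least 4 arrays, the filter for testing. The 8 tested genes were Krt1, Krt5, Krt14, Krt16 and Krt17 among the epidermal keratins and Krt83, Krt85 and Krt86 among the hair keratins. Krt14, a basal epidermal keratin, and Krt17, a keratin of skin appendages and injured epidermis, were measured on all 16 arrays. None of the 5 inner root sheath and companion layer keratins (Krt25, Krt26, Krt27, Krt71, Krt75) was measured on any array, and of the 10 hair keratins Krt31, Krt34, Krt35 and Krt82 were on none. For Krt36 this was so of its brighter probe, while its second probe was well above background on ALA tumour 4 alone, at -2.26. The number of keratin genes measured per array was 3 to 11 in control tumours, 5 to 9 with ALA, 5 to 9 with X-ray and 4 to 14 with ALA plus X-ray. The array of ALA plus X-ray tumour 4 held the 14.

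**Figure D1:**
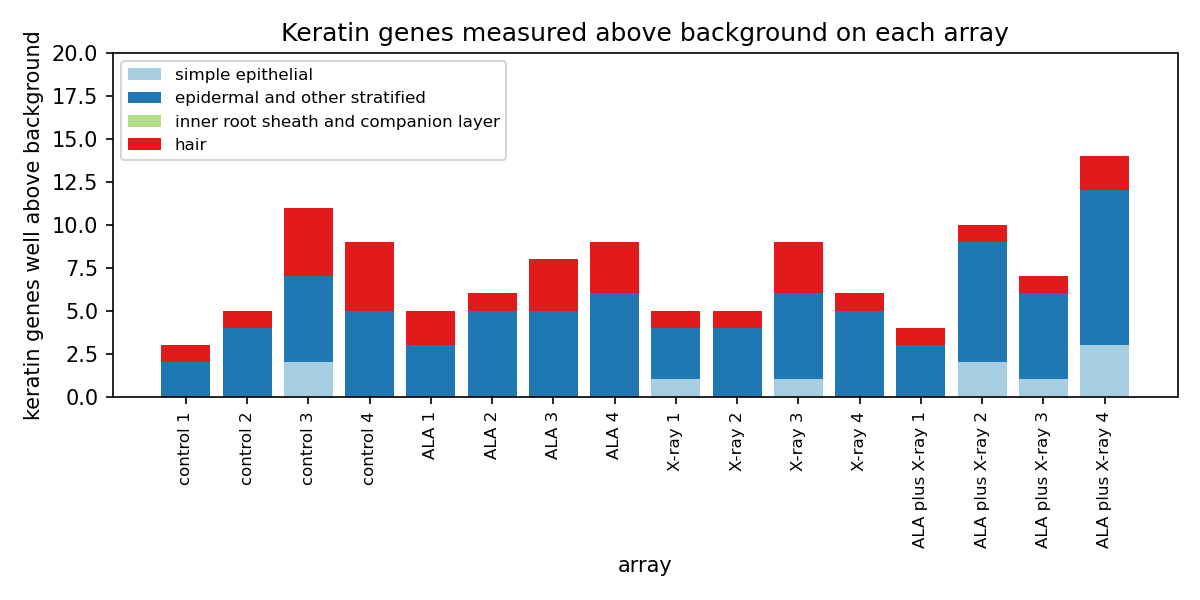
Number of keratin genes well above background (y axis) on each of the 16 arrays (x axis), stacked by keratin class. The tallest bar is ALA plus X-ray tumour 4 with 14 genes, 9 of them epidermal or other stratified keratins; no bar holds an inner root sheath keratin.

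**Figure D2:**
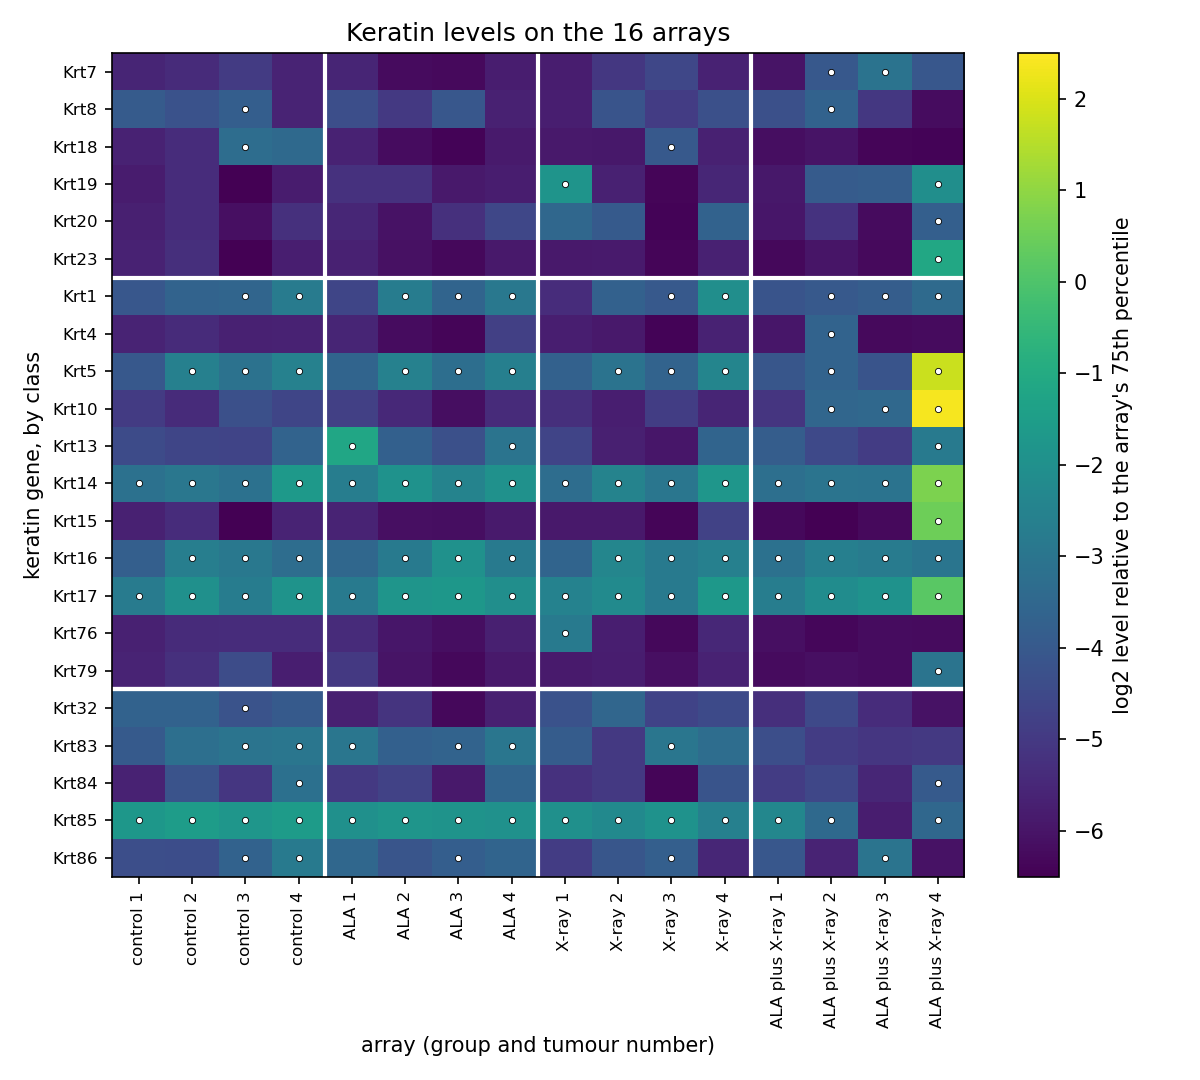
Log2 level relative to the array's 75th percentile (colour) of the keratin genes measured on at least 1 array (rows, grouped as simple epithelial, epidermal and other stratified, and hair) on the 16 arrays (columns, by group). White dots mark arrays where the probe was well above background; the brightest cells are Krt10 at 2.39 and Krt5 at 1.79 on ALA plus X-ray tumour 4, and Krt85 darkens from -1.53 in control tumour 2 to -5.77 in ALA plus X-ray tumour 3.

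The hair keratins Krt85 and Krt83 were lower in tumours given ALA plus X-ray than in control tumours or tumours given ALA alone. Krt85, a type II keratin of the hair matrix and early shaft, stood at -1.72, -1.53, -1.76 and -1.56 in control tumours 1 to 4. With ALA it stood at -1.98, -1.79, -1.87 and -1.93, and with X-ray at -1.99, -2.23, -1.91 and -2.58. With ALA plus X-ray it stood at -2.33, -3.43, -5.77 and -3.49, and tumour 3 of that group was not well above background. The control tumours were the highest (mean -1.64 ± 0.11, SD, n = 4), ALA (-1.89 ± 0.08) and X-ray (-2.18 ± 0.30) followed, and the combined group was the lowest and most spread (-3.75 ± 1.44, SD, n = 4), overlapping with X-ray but not with control or ALA.

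In the limma fit over 15399 genes, Krt85 was 4.32-fold lower with ALA plus X-ray than in control tumours (log2 difference -2.11, SE 0.48, 95% interval -3.15 to -1.08, adjusted p = 0.00998). It was lower in all 4 slides, by -0.61, -1.89, -4.00 and -1.94 on the log2 scale. Without ALA plus X-ray tumour 3, in which the skeletal muscle markers summed to 1030, the difference was -1.44 (adjusted p = 0.00713), and without both tumours 3 and 4, an exclusion chosen after seeing the data, it was -1.24 (adjusted p = 0.0310). With normexp background correction, which compresses dim signals, the difference was -0.91 (adjusted p = 0.00305), and with a fit on the arrays compared alone the call was lost (-2.11, adjusted p = 0.0595).

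Against ALA alone Krt85 was 3.64-fold lower (log2 difference -1.86, SE 0.48, adjusted p = 0.0161), and the difference was -1.19 (adjusted p = 0.0115) without tumour 3. The call was lost with the fit on the arrays compared (adjusted p = 0.0791) and without tumours 3 and 4 (-0.99, adjusted p = 0.0542). Against X-ray alone the difference was -1.58 (SE 0.48, interval -2.61 to -0.54) and did not pass (adjusted p = 0.0854), and it was -0.91 (adjusted p = 0.123) without ALA plus X-ray tumour 3. It passed without ALA plus X-ray tumour 1 (-2.05, adjusted p = 0.00814) and with array weights (-1.35, adjusted p = 0.00838). The single treatments did not pass either. X-ray alone gave -0.53 (SE 0.48, adjusted p = 0.555) and ALA alone gave -0.25 (SE 0.48, adjusted p = 0.934), although in both cases no treated array reached the lowest control array, a separation seen in 18.3% and 5.70% of all genes tested. The interaction, which asks whether the combined effect departs from the sum of the single ones on the log2 scale, was -1.33 (SE 0.68, adjusted p = 0.304), and -0.66 (adjusted p = 0.330) without ALA plus X-ray tumour 3.

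Krt83, a type II keratin of the hair cortex, was well above background on 6 of the 16 arrays. It stood at -3.96, -3.20, -3.04 and -2.96 in control tumours, at -2.98, -3.74, -3.62 and -2.96 with ALA and at -3.88, -4.99, -2.95 and -3.28 with X-ray. With ALA plus X-ray it stood at -4.35, -4.91, -5.09 and -4.99, below every control and every ALA tumour. It was well above background in 2 control, 3 ALA and 1 X-ray tumours and in 0 of the 4 tumours given ALA plus X-ray. The fitted log2 difference against control was -1.54 (SE 0.38, adjusted p = 0.0125), and as the combined group had no measured array the fold is a bound of at least 1.75-fold lower. The bound takes, on each dim array, the higher of the lowest signal well above background and the probe's own signal. Against ALA it was -1.51 (SE 0.38, adjusted p = 0.0136), at least 1.71-fold lower. Without ALA plus X-ray tumours 3 and 4 neither call held (adjusted p = 0.134 and 0.139). Against X-ray alone Krt83 differed by -1.06 (SE 0.38, adjusted p = 0.121).

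Krt86, also of the hair cortex, did not pass in any of the 6 comparisons. It stood at -4.35, -4.39, -3.66 and -2.78 in control tumours, at -3.48, -4.13, -3.82 and -3.61 with ALA, at -4.90, -4.08, -3.77 and -5.52 with X-ray and at -4.05, -5.61, -3.05 and -6.07 with ALA plus X-ray, so the groups overlapped. Its log2 difference between them was -0.90 (SE 0.59, adjusted p = 0.270), and 2 alternative settings called it lower, with normexp background correction (-0.63, adjusted p = 0.0161) and with array weights (-1.60, adjusted p = 0.0146). It was measured in 2 control tumours and in 1 tumour of each other group.

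Counted together, 2 of the 8 tested keratins fell and 0 rose in the combined group compared with control, where 24.9% of all 15399 genes were called, 15.1% lower and 9.77% higher. Against ALA alone 2 fell and 0 rose, where 24.1% were called and 13.4% were lower. The same 2 were the keratins whose arrays did not overlap in these comparisons, as in 20.6% and 20.7% of all genes. The share of keratins called was thus close to the share of all genes. Both genes that fell were hair keratins, and the 3 tested hair keratins had a median log2 difference of -1.54 against control and -1.51 against ALA, where the medians over all genes were -0.08 and -0.13. Krt33b, a hair keratin whose name falls outside the rule, is not in these medians. It stood at -3.78, -3.46, -3.53 and -1.99 in control tumours and at -3.11, -2.95, -3.11 and -2.07 with ALA. With ALA plus X-ray it stood at -3.35, -3.56, -2.45 and -2.89, overlapping with both. Over all 10 hair keratins with a probe, tested or not, the median was -0.54 and -0.55, but the untested ones were well above background on few arrays or none. Some keratins measured on no array shifted as well. Krt25, Krt26, Krt27, Krt71 and Krt75 had means of -5.86, -5.83, -4.92, -5.48 and -5.74 in control tumours. With ALA plus X-ray their means were -5.85, -6.34, -5.88, -6.22 and -5.80. Krt26, Krt27 and Krt71 were thus lower, while Krt25 and Krt75 stayed close to their control means. The part of the brighter arrays in such shifts was not tested. Over the tested hair keratins with normexp background correction the median was -0.65 and -0.61. In the other 4 tests limma called 0 keratins. X-ray alone compared with control called 3.37% of all genes (1.99% higher, 1.38% lower), and ALA alone called 0%. The combined treatment compared with X-ray called 2.07% (1.3% higher, 0.766% lower), and 0 keratins had arrays that did not overlap there, as 6.4% of all genes did. The interaction called 1.23% (0.896% higher, 0.331% lower). At an unadjusted p under 0.05 the number of keratins was 2 for the combined treatment compared with X-ray and 0 in the other 3. ALA plus X-ray is the same 4 tumours in each comparison, and control and ALA were each compared with it, so these counts share samples.

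Of the other hair follicle markers, none that passed the filter was called lower with ALA plus X-ray. Of 8 such markers, Tchh, Hoxc13, Dsg4, Foxn1 and Msx2 were well above background on no array, and the summed level of the 8 was 0.204 to 0.346 in control tumours and 0.349 to 0.492 with ALA plus X-ray. S100a3 (well above background on 13 arrays), Gprc5d and Padi3 (8 arrays each) passed the filter, and their log2 differences between ALA plus X-ray and control had a median of 0.51. Padi3, an enzyme that modifies proteins of the inner root sheath and hair, stood at -3.97, -5.33, -5.02 and -5.74 in control tumours and at -2.12, -2.74, -3.20 and -2.63 with ALA plus X-ray, and rose (log2 difference 2.34, SE 0.40, adjusted p = 0.00323). It also rose with X-ray alone (1.73, SE 0.40, adjusted p = 0.0351). S100a3 differed by 0.40 (SE 0.26, adjusted p = 0.275) and Gprc5d by 0.51 (SE 0.44, adjusted p = 0.413). With ALA plus X-ray against control, 9.77% of all genes were called higher. Of the 8 macrophage markers 3 were called higher there (median log2 difference 1.54). Of the 7 fibroblast markers 0 were called there, with a median of 1.39. Against ALA alone, where Krt85 and Krt83 were also called lower, 1649 of all 15399 genes were called higher. So were all 8 macrophage markers (median 3.81) and 6 of the 7 fibroblast markers (median 2.33). Their part in the hair keratin levels was not tested.

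**Figure D3:**
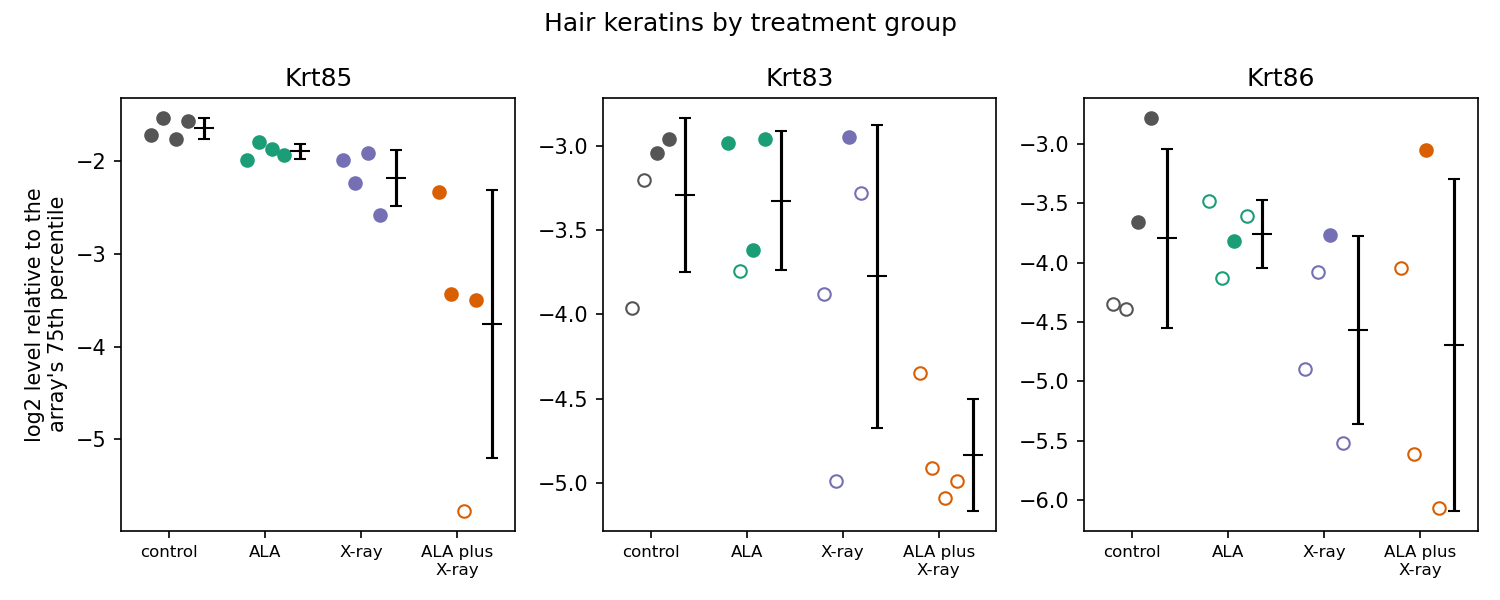
Log2 level relative to the array's 75th percentile (y axis) of Krt85, Krt83 and Krt86 in the 4 treatment groups (x axis); each point is 1 tumour, filled where the probe was well above background, and the bar is the mean with SD (n = 4). Krt85 runs from -1.64 on average in control tumours to -3.75 with ALA plus X-ray, and no Krt83 point of that last group is filled.

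**Figure D4:**
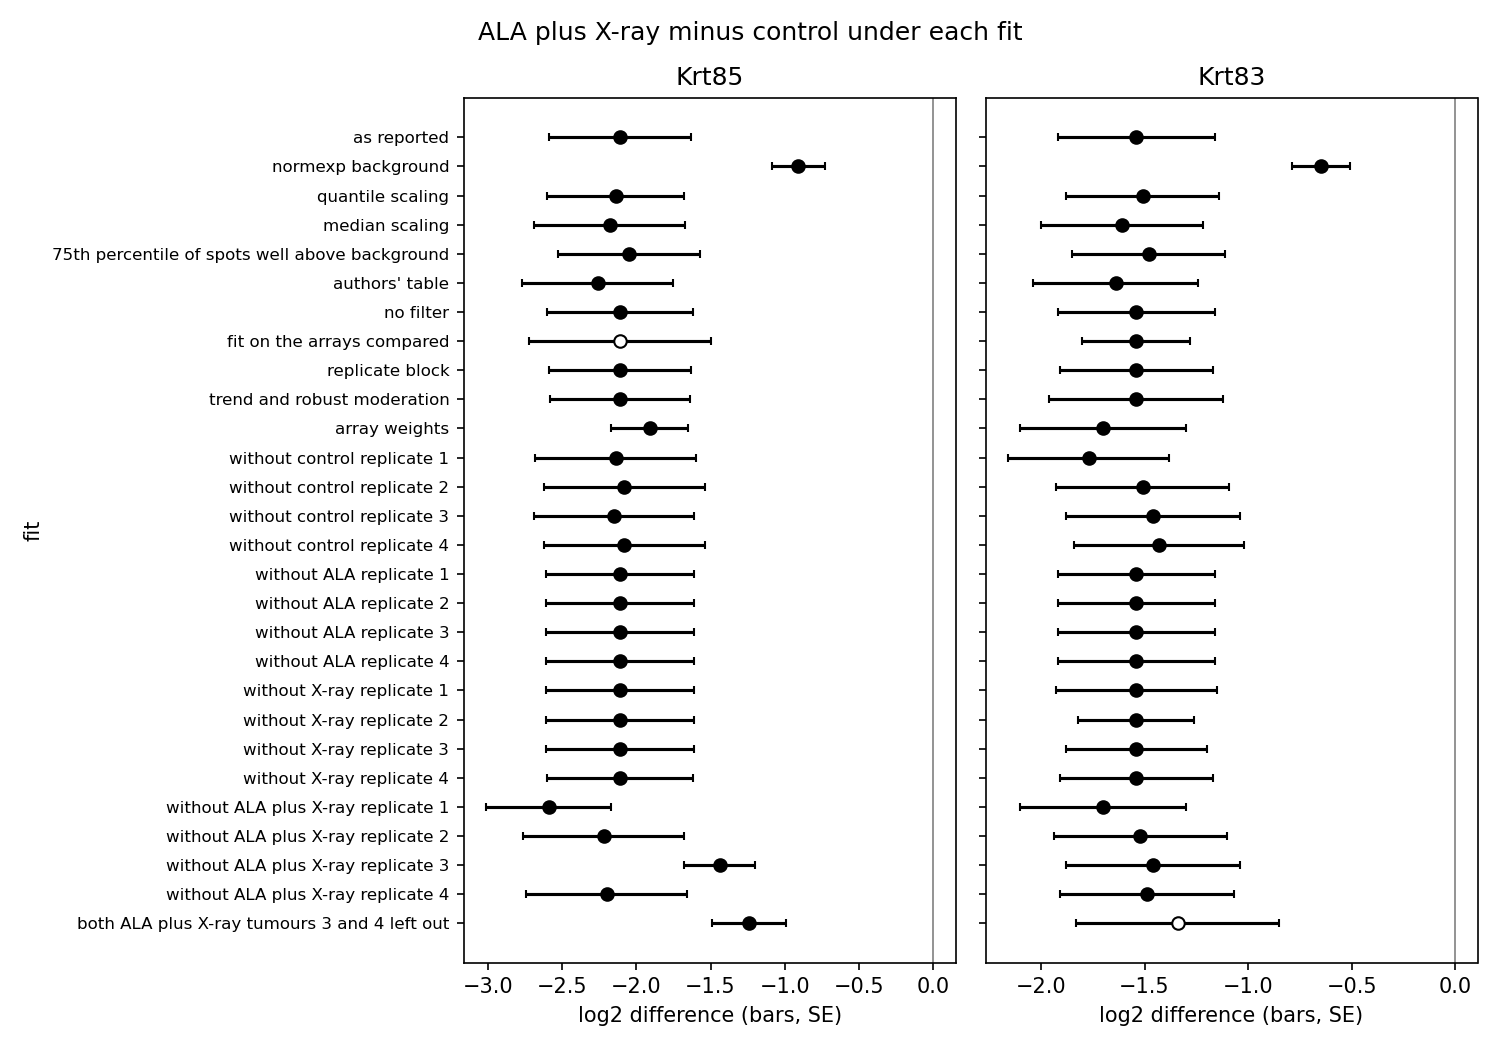
Log2 difference between ALA plus X-ray and control (x axis, with SE) of Krt85 and Krt83 under each fit (y axis); filled points passed an adjusted p of 0.05. Every point lies below 0; normexp background correction gives the smallest differences, -0.91 for Krt85 and -0.65 for Krt83.

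No epidermal keratin passed the test in any comparison of the treatment groups, but 1 tumour stood far above the rest. Krt5 stood at -4.02, -2.58, -3.12 and -2.56 in control tumours, at -3.59, -2.56, -3.24 and -2.63 with ALA and at -3.71, -3.08, -3.63 and -2.41 with X-ray. With ALA plus X-ray it stood at -4.08, -3.63, -4.17 and 1.79. Its partner Krt14 stood at -3.16, -2.93, -3.13 and -1.65 in control tumours, at -2.70, -1.90, -2.48 and -1.95 with ALA, at -3.28, -2.48, -2.96 and -1.78 with X-ray and at -3.23, -3.03, -3.06 and 0.73 with ALA plus X-ray. In both genes tumour 4 of the combined group was the highest of all 16, and the other 3 tumours of that group were among the lowest. Over all tumours Krt5 differed by 0.55 between ALA plus X-ray and control (SE 0.99, interval -1.58 to 2.68, adjusted p = 0.718), and without tumour 4 by -0.89 (SE 0.39, adjusted p = 0.128). Krt14 differed by 0.57 (SE 0.71, adjusted p = 0.588), and without tumour 4 by -0.39 (SE 0.39, adjusted p = 0.511). The median over the 5 tested epidermal keratins moved from 0.55 to -0.39 when that tumour was left out, so its sign rested on 1 array.

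Krt17 stood at -2.77, -2, -2.71 and -1.86 in control tumours, at -2.84, -1.81, -1.74 and -2.04 with ALA, at -2.50, -2.21, -2.81 and -1.70 with X-ray and at -2.67, -2.14, -1.90 and 0.20 with ALA plus X-ray, where tumour 4 was again the highest. Krt16, a keratin of stressed and regenerating epidermis, did not follow. It stood at -3.78, -2.65, -2.91 and -3.30 in control tumours, at -3.50, -2.81, -1.94 and -2.83 with ALA and at -3.59, -2.36, -2.83 and -2.57 with X-ray. With ALA plus X-ray it stood at -3.14, -2.60, -2.77 and -3.00, inside the range of the control tumours but for tumour 2, which lay just above it. Krt1 has a pair of probes that disagreed. The brighter one, from a cDNA clone, stood at -4.05, -3.62, -3.56 and -2.74 in control tumours and at -4.15, -3.99, -3.83 and -3.39 with ALA plus X-ray, and was highest in X-ray tumour 4 at -2.06, whereas the probe with Krt1's RefSeq accession was well above background in control tumour 4 (-2.82) and ALA plus X-ray tumour 4 (-2.36) alone.

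ALA plus X-ray tumour 4 was high for many epidermal transcripts, and it stood apart for other cell types too. Its summed fibroblast (421), endothelium (9.67) and T and NK cell (3.25) markers were the highest of the 16 arrays, and its melanoma sum (939) was the lowest. The part of these in its keratin levels was not tested. Krt10, the suprabasal partner of Krt1, stood at 2.39 there, at least 53.8-fold above every other array (the next highest was -3.46, ALA plus X-ray tumour 3), and its second probe was likewise highest there. By its brighter probe Krt10 was well above background in 3 of the 4 tumours given ALA plus X-ray and in no other tumour. By its second probe it was so in tumour 4 of that group alone, and stood at -4.91 and -4.75 in tumours 2 and 3. Krt15, a basal and bulge keratin, stood at 0.52 and was well above background in no other tumour, so that it was at least 14.7-fold higher, the other arrays being taken at the higher of their detection floor and their own signal. Krt5 was 18.4-fold above the next array. Krt23, a type I keratin of simple epithelia, stood at -1.09, measured in that tumour alone and at least 4.81-fold higher there. Krt14 exceeded the next array 5.20-fold. Counted over the class, 5 of the 37 keratins (13.5%) exceeded every other array by at least 2 on the log2 scale in that tumour, against 0.260% of all 30010 genes, with arrays at background taken at their own signal. Of the other 15 arrays, X-ray tumour 1 held 1 such keratin (Krt76) and the rest held 0.

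Of 29 cornified envelope genes, 18 were well above background in that tumour and 2 to 7 in the others, and 6 exceeded every other array by at least 2 on the log2 scale (Dmkn, Flg2, Hrnr, Krtdap, Lor and Ly6d). Ivl and Flg, which also belong to this list, were well above background on no array. Of 24 desmosome and linker genes, 14 were measured there and 8 to 11 in the others, and 3 stood out in the same way (Col17a1, Perp and Pkp1). Lor, a main protein of the cornified envelope, stood at 3.43, measured in that tumour alone and at least 111-fold higher there. Trp63, Dsg3 and Dsc3, which basal keratinocytes are known to express, were well above background on no array. Summed over the 5 epidermis markers that are neither keratins nor Sfn, the level was 0.0732 to 0.158 on the other 15 arrays, with none of the 5 well above background, and 11.3 in that tumour, with 2 of the 5. Sfn was left out of this sum because it was bright on all 16 arrays, between 3.09 and 4.20.

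**Figure D5:**
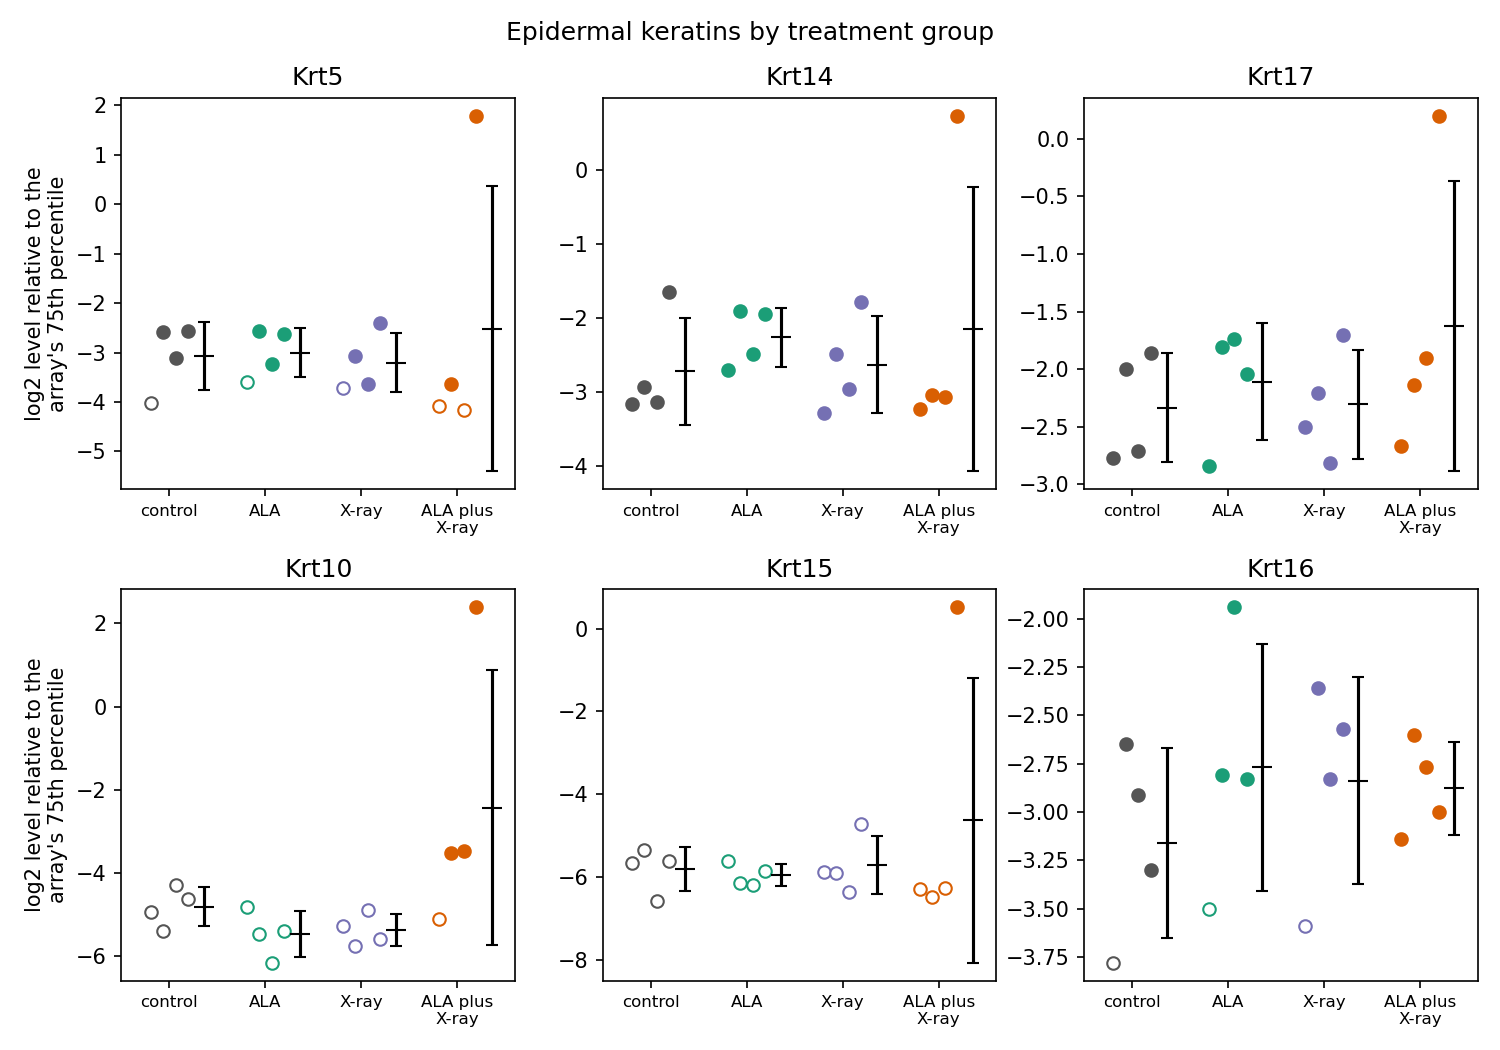
Log2 level relative to the array's 75th percentile (y axis, scale differing by panel) of 6 epidermal keratins in the 4 treatment groups (x axis); each point is 1 tumour, filled where well above background, and the bar is the mean with SD (n = 4). In Krt5, Krt14, Krt17, Krt10 and Krt15 the highest point is ALA plus X-ray tumour 4, and in Krt16 it is ALA tumour 3 at -1.94.

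The promoters of Krt10, Krt14 and Krt5, which were high together in this tumour, are shown for their core elements. Each is the 250 bases before the start of the gene from RefSeq (GRCm38.p6, minus strand). Promoters were found for 26 of the 37 keratin genes. The search took TATAAA (the TATA box), TGANTCA (the site of AP-1 factors) and GCCNNNGGC (the site of AP-2 factors) on both strands, and these held in 12.4%, 6.75% and 13.7% of 32851 promoter windows of that length. Capitals mark a match.
Krt10, chr11:99389365-99389614: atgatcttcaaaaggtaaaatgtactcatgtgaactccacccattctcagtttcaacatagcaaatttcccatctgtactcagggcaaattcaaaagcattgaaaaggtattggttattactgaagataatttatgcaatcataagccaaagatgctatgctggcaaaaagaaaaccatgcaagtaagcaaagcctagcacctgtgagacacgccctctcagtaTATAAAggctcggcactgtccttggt
Krt14, chr11:100206031-100206280: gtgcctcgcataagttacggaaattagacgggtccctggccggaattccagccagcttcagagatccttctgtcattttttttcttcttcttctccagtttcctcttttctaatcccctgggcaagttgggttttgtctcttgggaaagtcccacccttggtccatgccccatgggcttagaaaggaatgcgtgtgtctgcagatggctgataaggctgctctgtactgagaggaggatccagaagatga
Krt5, chr15:101712906-101713155: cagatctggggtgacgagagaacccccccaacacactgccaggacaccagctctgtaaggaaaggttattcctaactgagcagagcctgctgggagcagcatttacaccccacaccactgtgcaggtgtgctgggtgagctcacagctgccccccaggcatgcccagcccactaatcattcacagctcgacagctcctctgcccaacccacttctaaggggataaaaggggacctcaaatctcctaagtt
Krt10 held TATAAA starting 26 bases before the gene's start, and the windows of Krt14 and Krt5 held none of the 3 motifs. Of the other keratins that stood out in this tumour, Krt23 had a window with none of the 3 motifs (not shown), and for Krt15 no promoter was found. TATAAA was found in 12 of the 26 keratin genes, TGANTCA in 1 and GCCNNNGGC in 3.

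Across the 16 arrays the levels of the partners Krt5 and Krt14 ran in parallel (Pearson r = 0.95, permutation p = 8e-05; Spearman rho = 0.87, permutation p = 6e-05, two-sided, 100000 resamples). Of 6 partner pairs chosen for this comparison it was the single pair with both members tested, so the adjusted p equals the raw one. Without ALA plus X-ray tumours 4 and 3, the arrays farthest from the median of Krt5, r was 0.81 (permutation p = 0.00098), and after group means were subtracted from all 16 arrays it was 0.95. Tumour 4 stands apart as a cluster of its own, and over the other 15 arrays r was 0.81 (permutation p = 0.00044). On those 15 arrays the relation did not hold within slides: with slide means subtracted r was 0.47 (permutation p = 0.0637) and rho was 0.26 (permutation p = 0.355). On slide 4 Krt14 stood at -1.65 in the control, -1.95 in the ALA and -1.78 in the X-ray tumour, the highest level of the control and of the X-ray group. As a description, over the same 15 arrays the r of the other 27 pairs of tested keratins ran from -0.24 to 0.82 with a median of 0.27; Krt1 with Krt14 gave 0.82, and Krt83 with Krt85 gave 0.67.

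The simple epithelial keratins were measured here and there and none reached the filter. Krt8 was well above background in control tumour 3 (-3.82) and ALA plus X-ray tumour 2 (-3.66), and its partner Krt18 in control tumour 3 (-3.27) and X-ray tumour 3 (-3.97), so both partners were measured together in 1 of the 16 tumours. Krt19, a type I keratin of ductal epithelia, was measured in X-ray tumour 1 (-1.84) and ALA plus X-ray tumour 4 (-2.04) and was at background in most of the others. Krt7, a type II keratin of ducts, was measured in ALA plus X-ray tumours 2 (-4.02) and 3 (-3.08), and Krt20, of the gut lining, in ALA plus X-ray tumour 4 (-3.76). Krt8 and Krt7 each had a second probe that was well above background on no array. That of Krt8 stood at -5.28 in control tumour 3, and that of Krt7 at -6.25 and -4.95 in ALA plus X-ray tumours 2 and 3. The reported fit left out the simple epithelial keratins, as a gene at background in most tumours has no level to compare. A fit with no filter called Krt18 between ALA plus X-ray (mean -6.25) and control (mean -4.43). Among other markers of simple epithelia, Epcam and Cldn7 were well above background on no array, and Cdh1 was on 8 arrays and rose with ALA plus X-ray against control (0.95, adjusted p = 0.00739).

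Single arrays also stood out for other keratins. Krt13, of the oral and oesophageal lining, stood at -1.18 in ALA tumour 1 and at -2.82 or below elsewhere. It was also well above background in ALA tumour 4 (-3.05) and ALA plus X-ray tumour 4 (-2.82). Its second probe was well above background on no array and stood at -5.55 in ALA tumour 1. Krt76 stood at -2.80 in X-ray tumour 1, the same tumour that was high for Krt19, and was at background on the other 15 arrays. Krt6b, an injury keratin whose name falls outside the rule, stood at -1.62 in ALA tumour 2 and -1.32 in X-ray tumour 2 and was well above background on no other array.

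Genes that work with keratins were followed in lists chosen for this purpose. Of 43 keratin-associated proteins, which crosslink hair keratins, 8 passed the filter. With ALA plus X-ray against control 0 were called and 4 of the 8 lay above 0 (median -0.08). Against ALA alone 1 was called lower, Krtap7-1 (log2 difference -1.19, SE 0.29, adjusted p = 0.0134), where 13.4% of all genes were. There 0 of the 8 lay above 0 (median -0.67), as did 5983 of all 15399 genes (median -0.13). Against X-ray 0 of the 8 lay above 0 (median -0.38), beside 6218 of all genes (median -0.08). In the interaction 0 of the 8 did (median -1.01), beside 6299 of all genes (median -0.1). Neither comparison called any of the 8. For ALA alone against control 7 of the 8 lay above 0 (median 0.55), with 0 called, beside 7643 of all genes (median 0). Krtap4-6 was bright on all 16 arrays, between 5.92 and 6.84. Of 7 keratins and keratin-named genes outside the rule, 3 passed the filter and 1 rose with ALA plus X-ray against control, Krtcap3 (0.97, SE 0.21, adjusted p = 0.00843), which despite its name is not a keratin. Krt33b, a type I hair keratin, was measured in 12 tumours and did not pass in any comparison. Of 29 cornified envelope genes 5 passed the filter and 0 were called in any comparison. In that list Evpl differed by 1.47 between ALA plus X-ray and control (SE 0.72, adjusted p = 0.141, 0.0292 with the slide as a block), and by 0.76 without ALA plus X-ray tumour 4 (adjusted p = 0.404).

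Desmosomes anchor keratin filaments at the cell border. Of 24 desmosome and linker genes 9 passed the filter, and with ALA plus X-ray against control 2 rose and 0 fell. Pkp2 rose by 1.49 (SE 0.32, adjusted p = 0.00817), having also risen by 1.59 with X-ray alone (SE 0.32, adjusted p = 0.0265). Pkp3 rose by 2.73 (SE 0.75, adjusted p = 0.0196), which was lost without tumour 4 (2.30, adjusted p = 0.0571). Of 20 epithelial junction genes 5 passed the filter, and 3 rose against control: Cdh1, the adhesion protein E-cadherin (0.95, SE 0.20, adjusted p = 0.00739), Lsr, of tricellular junctions (1.56, SE 0.39, adjusted p = 0.0131), and Spint1, an inhibitor of epithelial proteases (2.04, SE 0.39, adjusted p = 0.00529). All 3 also passed without tumour 4 (largest adjusted p = 0.0380). In the same list Tjp3 fell against X-ray alone (-0.88, SE 0.18, adjusted p = 0.0344) and did not pass without tumour 4 (adjusted p = 0.0949) or tumour 3 (0.109).

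Of 24 genes listed as regulators of keratinocytes and the hair follicle 9 passed the filter. Sox9, a hair follicle stem cell factor also made by other cells, rose with ALA plus X-ray against control (2.22, SE 0.34, adjusted p = 0.00214) and with X-ray alone (1.33, SE 0.34, adjusted p = 0.0485, but 0.0669 with the slide as a block and 0.0549 without ALA plus X-ray tumour 4). Nrf1 and Cux1, which are not particular to keratinocytes, fell with ALA plus X-ray against control, by 1.04 (adjusted p = 0.0180) and by 0.44 (adjusted p = 0.0284, and 0.0681 without tumour 3). Of the 16 other intermediate filament genes 9 passed the filter, and 1 was called with ALA plus X-ray against control. This was Lmnb1, a nuclear lamin, with a log2 difference of -1.14 (SE 0.32, adjusted p = 0.0216), which was lost without tumour 3 (adjusted p = 0.0577). Vim, the main intermediate filament of melanoma cells, was bright on all 16 arrays, between 5.89 and 6.96, and did not pass in any comparison. These counts stand beside the 24.9% of all genes called in the comparison with control.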

How the data were processed

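RNA of 16 B16-BL6 tumours was labelled with Cy3 and hybridised to 1-colour Agilent arrays. The deposited values are linear signal intensities: processed signals from Agilent Feature Extraction, background-subtracted and not scaled between arrays, per the file headers, and a table of intensities by the authors whose column medians are equal (quantile normalised, judged from the values). Neither gives a log ratio or a reference. Here log2 processed signals were scaled to each array's 75th percentile over non-control spots, flagged outlier spots were left out, spots of a probe were averaged, and only probes that passed the scanner's background test on 4 or more of the 16 arrays were kept, with the probe of highest mean standing for its gene (15399 genes). Groups were compared with limma 3.58.1 (R 4.3.3) in 1 fit of 4 group means, with Benjamini-Hochberg adjustment over all genes of a comparison and a threshold of 0.05. The number of arrays, 4 a group, limits the precision. Symbols came from RefSeq accessions (26844 probes), symbols (2891) or older symbols (350), and otherwise from the files (11050); keratins kept the files' names. The fit was tested on simulated data. Named keratins were those called in a comparison, those of widest range in a class and a set of well known ones; from each list, up to 3 genes of smallest p that passed, or up to 2 where none passed. Krt6b, Krt13, Krt76, Vim, Krtap4-6, Krt33b, Padi3 and the epidermal genes named for tumour 4 of the combined group were also named after their values were seen. Members and lists were chosen with earlier results of these data known. Alternatives covered background, scaling, the authors' table, the filter, probes, arrays in the fit, moderation, array weights, the slide as a block and each array left out; leaving out 2 tumours together and the partner correlation without tumour 4 were added after seeing the data.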

Additional observations from a re-analysis of the deposited data

Results flagged for a closer look

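Of 148 keratin and group combinations, the 50 with at least 1 array well above background were examined, and 8 had 1 tumour whose gap to the nearest of the other 3 relative to the group's whole range passed Dixon's critical value for 4 samples. Chance gives about 1 in 20 in unselected groups, a rate that does not apply to combinations chosen for holding a measured array. In 5 of the 8 the tumour set apart was the 1 measured array of its group. Of these 8, 5 were tumour 4 of ALA plus X-ray: Krt5 at 1.79 (others -4.17 to -3.63), Krt14 at 0.73 (-3.23 to -3.03), Krt15 at 0.52 (-6.48 to -6.27), Krt23 at -1.09 (-6.30 to -5.98) and Krt79, a keratin of the skin's sebaceous ducts, at -3.03 (-6.22 to -6.14). The other 3 were Krt4 in ALA plus X-ray tumour 2 at -3.65 (others -6.26 to -5.97), Krt14 in control tumour 4 at -1.65 (-3.16 to -2.93) and Krt18 in X-ray tumour 3 at -3.97 (-5.93 to -5.68). No keratin passed the test of the interaction of ALA and X-ray, so none was set apart for an effect that differs between treatment backgrounds.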

How the results depend on the processing

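Depth of signal limits these results: 29 of the 37 keratins did not reach the filter, and the combined group's arrays were brighter. The number of keratins called with ALA plus X-ray against control was 4 with no filter (Krt18 and Krt32 added), 0 with the filter on all 16 arrays (which leaves Krt14 and Krt17), 1 in the fit on the arrays compared and 1 without tumours 3 and 4 of that group; against ALA it was 0, 1 and 0 under the last 3. Against X-ray it was 1 with array weights and 0 to 2 when each array was left out. Krt32 was low with ALA alone as well: its means were -3.87 in control tumours, -5.71 with ALA, -4.24 with X-ray and -5.31 with ALA plus X-ray. It was well above background in control tumour 3 alone. The median of the hair keratins under normexp was -0.65 against control, -0.61 against ALA, -0.46 against X-ray and -0.42 in the interaction; with no filter it was -0.54, -0.55, -0.49 and -0.33; without tumours 3 and 4 it was -1.07 against ALA and -0.45 in the interaction. The median of the epidermal keratins against control was -0.41 without tumours 3 and 4 and -0.39 to 0.93 when each array was left out. Krt5 with Krt14 gave r = 0.47 within slides without tumour 4. The filters change which genes are tested; the cause of the other shifts was not tested. When each array was left out, the counts against control and against ALA stayed at 2. No alternative reversed a called value.

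The replicate number was the slide on all 16 arrays. Same-numbered samples deviated together (correlation over 0.1) in 9 of 24 pairs (median 0.06, range -0.46 to 0.54). Samples of other numbers did so in 20 of 72 pairs (median -0.01, range -0.6 to 0.45). The number was therefore not taken as pairing in the fit reported, though single genes may still follow the slide. With it as a block, Krt85 against control gave -2.11 (adjusted p = 0.0127) and no keratin call changed. Median scaling moved the share of higher calls over all genes: 1360 of 1896 against ALA (1649 of 3713 as reported), 206 of 243 against X-ray (200 of 318), 27 of 28 for X-ray against control (307 of 519) and 241 of 273 in the interaction (138 of 189).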
